A study of Mus musculus with 21 samples.

Results

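The genes described here are 10 genes of the mammalian circadian clock, Per1, Per2, Per3, Cry1, Cry2, Nr1d1, Nr1d2, Dbp, Tef and Bhlhe40, followed across 7 groups of mouse embryonic stem cell (ESC) libraries. They were chosen by symbol, and all 10 were found among the 20900 genes of the deposited table. All 10 were tested, since each exceeded a log2 value of 0 in 3 or more of the 21 libraries, as did 14666 genes in all. The cells were the E14 line, a single line of 129 strain, grown with serum and leukemia inhibitory factor. They were plated 1 day before treatment, and the 18 treated libraries came from cells whose medium was exchanged for fresh ESC medium holding 1 µM of BMH-21 or of CX-5461, small-molecule inhibitors of RNA polymerase I, for 2, 4 or 8 h. The 3 control libraries are 0 h cells, and no vehicle or medium-change control at 2, 4 or 8 h was analysed here. Each group had 3 libraries of poly(A) RNA. Against 0 h, the inhibitor, the fresh serum-containing medium and the extra hours in culture cannot be told apart, so the comparison of BMH-21 with CX-5461 at the same hour is also given for the 10 genes and for most of the others named.

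The clock is a feedback loop in transcription. CLOCK and BMAL1 (gene Arntl) bind E-box sequences and drive the period and cryptochrome genes, whose proteins return to repress CLOCK and BMAL1. The same E-boxes drive Nr1d1 and Nr1d2, which encode the REV-ERB nuclear receptors that repress Arntl through ROR elements, the PAR bZIP factors Dbp and Tef, which activate genes through D-boxes, and Bhlhe40 (DEC1), a repressor that competes for E-boxes. Serum, glucocorticoids and CREB signalling are known to reset this loop in cultured cells, with Per1 and Per2 among the fast-responding genes. Mouse ESCs express many of these genes but are known to lack a running rhythm until they differentiate.

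The sequences just before the transcription starts are shown for the genes with a match to a motif named below. Nr1d1 and Dbp had no match and are not printed. RefSeq windows (assembly GRCm38.p6) were found for 8 of the 10 genes, and those of Per2 and Bhlhe40 are not given. Each line below is the 250 bases before an annotated start, on the gene's own strand from 5′ to 3′, and capitals mark matches to 5 motifs searched on both strands. The motifs were the E-box CACGTG, the cyclic AMP response element (CRE) TGACGTCA, its shorter form TGACG, the D-box as TTATGTAA, TTACGTAA, TTACATAA or TTATATAA, and AGGTCA, the core of a ROR element. The shorter CRE form lies inside the whole one, so a whole CRE would count for both.
Per1, chr11:69098699-69098948, + strand: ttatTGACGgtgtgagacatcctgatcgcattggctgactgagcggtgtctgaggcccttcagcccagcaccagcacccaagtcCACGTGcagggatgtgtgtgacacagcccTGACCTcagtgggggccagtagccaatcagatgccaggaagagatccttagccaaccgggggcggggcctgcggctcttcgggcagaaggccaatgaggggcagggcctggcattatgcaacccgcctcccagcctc
Per3, chr4:151044666-151044915, - strand: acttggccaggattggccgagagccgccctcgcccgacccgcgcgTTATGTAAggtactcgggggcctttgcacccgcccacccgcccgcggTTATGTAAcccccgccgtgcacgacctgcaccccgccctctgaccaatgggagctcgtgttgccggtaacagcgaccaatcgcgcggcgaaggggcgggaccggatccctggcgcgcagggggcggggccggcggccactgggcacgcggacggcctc
Cry1, chr10:85185055-85185304, - strand: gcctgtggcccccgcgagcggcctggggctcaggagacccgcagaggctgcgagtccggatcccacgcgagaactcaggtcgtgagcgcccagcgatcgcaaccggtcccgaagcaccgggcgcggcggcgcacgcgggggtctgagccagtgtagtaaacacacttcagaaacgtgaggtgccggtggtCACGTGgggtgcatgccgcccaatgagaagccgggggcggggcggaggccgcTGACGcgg
Cry2, chr2:92434070-92434319, - strand: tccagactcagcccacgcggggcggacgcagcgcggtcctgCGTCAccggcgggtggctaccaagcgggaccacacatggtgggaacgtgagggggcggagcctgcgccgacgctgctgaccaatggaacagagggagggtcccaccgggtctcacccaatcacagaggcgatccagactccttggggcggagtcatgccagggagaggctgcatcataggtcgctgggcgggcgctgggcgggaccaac
Nr1d2, chr14:18239107-18239356, - strand: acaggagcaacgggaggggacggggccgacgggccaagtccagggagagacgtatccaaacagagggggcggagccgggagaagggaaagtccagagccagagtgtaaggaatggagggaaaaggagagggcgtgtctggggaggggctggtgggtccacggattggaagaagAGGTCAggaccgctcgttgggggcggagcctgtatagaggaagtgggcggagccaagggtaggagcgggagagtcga
Tef, chr15:81811164-81811413, + strand: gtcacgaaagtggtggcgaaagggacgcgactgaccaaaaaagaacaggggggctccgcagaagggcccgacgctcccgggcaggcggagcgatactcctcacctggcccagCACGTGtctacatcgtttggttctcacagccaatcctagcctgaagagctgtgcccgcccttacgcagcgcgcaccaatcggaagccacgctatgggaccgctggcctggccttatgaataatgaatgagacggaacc

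An E-box was present in the windows of 3 genes: counted from the start, its first base was at -166 in Per1, at -60 in Cry1 and at -138 in the Tef window printed. A second Per1 window, 250 bases of chromosome 11 from 69099902 to 69100151, is not printed and held no E-box but a short CRE form at -132. The other RefSeq start of Tef also had an E-box, at -127. That stretch lies in an exon of a longer GENCODE transcript and is not printed. E-boxes were found in 7.15% of all 32851 windows of 300 bases. Per3 was the single gene of the 8 with a D-box, and it had the same D-box letters 2 times, at -205 and -158, against 1.59% of all windows with any D-box. The short CRE form occurred in Per1, Cry1 and Cry2, against 20.8% of all windows, and the whole CRE in 0 of the 8 genes, against 1.79%. The ROR core occurred in Nr1d2 and Per1, against 16.3%, and none of the 5 motifs occurred in the windows of Nr1d1 or Dbp. These are matches of letters and not measured binding sites.

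The libraries held 46604397 to 62812641 reads over genes, and in the deposited log2 values each library is scaled by a factor of 0.832 to 1.375. The 3 BMH-21 libraries of 8 h had factors of 1.21 to 1.38 and the 3 CX-5461 libraries of 8 h 0.888 to 0.943, whereas median-ratio factors computed from the genes were 0.941 to 1.107. Differences at 8 h are therefore also given, for many of the genes, after each library was centred on its median. Sizes without that mention are on the deposited scale. On the deposited scale the median of all tested genes lay between -0.40 (BMH-21 at 8 h) and 0.11 (CX-5461 at 8 h) against 0 h. All 8 ESC marker genes had a mean above 0 in every group, and their summed log2 level was 12.55 to 12.74 at 0 h, 11.49 to 11.57 after 8 h of BMH-21 and 12.41 to 12.51 after 8 h of CX-5461. The 8 genes differed, given here as means at 0 h, 8 h of BMH-21 and 8 h of CX-5461. Nanog had 9.00, 6.87 and 8.74, Esrrb 8.69, 6.41 and 7.94, Zfp42 10.03, 7.82 and 9.29, and Utf1 8.82, 6.69 and 8.12. Pou5f1 had 10.66, 9.72 and 10.31, Sox2 9.34, 8.15 and 9.21, Tdgf1 9.88, 9.30 and 10.25, and Dppa5a 9.86, 9.31 and 9.91. The 5 fibroblast markers summed to 4.92 to 5.12 at 0 h, 5.28 to 5.54 after 8 h of BMH-21 and 5.43 to 5.47 after 8 h of CX-5461, and their members differed. Col3a1 (1 to 19 reads) and Twist2 (1 to 23 reads) were near 0 in every library and Col1a2 was low (41 to 105 reads). Col1a1 went from a mean of 3.15 at 0 h to 5.01 at 8 h of BMH-21 and 4.38 at 8 h of CX-5461, and Thy1 from 4.48 to 3.07 and 4.35. The 3 neural markers summed to 4.00 to 4.41 at 0 h and to 4.58 to 5.40 over the treated libraries, and the 3 mesoderm markers to 0.965 to 1.60 and 0.595 to 2.35. The 5 primitive endoderm markers summed to 3.90 to 4.17 and 3.36 to 4.15, and the 4 trophectoderm markers to 4.03 to 4.31 and 3.79 to 4.99. Members of the neural and mesoderm lists differed too. At 0 h and 8 h of BMH-21, Neurod1 had means of 2.80 and 4.90, Pax6 3.26 and 0.22, and Sox1 1.38 and 1.44. Mesp1 had -1.70 and 1.65, T 0.25 and -0.36, and Mixl1 -0.26 and -0.14. The part of all these markers in the results was not tested. In bulk RNA, fewer cells of a type and less RNA per cell cannot be told apart. The labels do not say that replicates were separate cultures. The p-values set differences against a spread between these libraries that was largely shared over genes, and that spread may be technical.

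At 0 h the genes covered a wide range of levels. Per kilobase of exon, on the log2 scale, Cry1 was highest at 3.94, followed by Per1 at 2.90, Nr1d1 at 2.59, Nr1d2 at 2.51 and Cry2 at 2.43. Bhlhe40 (1.40) and Tef (0.96) were lower, Dbp (-0.13) and Per3 (-0.23) lower again, and Per2 was lowest at -2.14. Per2 had 38 to 117 reads in a library and Dbp 98 to 199, so counting error weighs more on these genes than on the other eight, which had at least 279 reads in every library.

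Against 0 h, Tef was higher in all 6 treated groups, Bhlhe40 was lower at 2 h and higher at 8 h with either inhibitor, and Cry1, Cry2 and Nr1d2 were lower at 4 h with either inhibitor. With BMH-21, 2 of the 10 genes passed the test at 2 h (1 higher, 1 lower), against 19.7% of all genes tested (8.48% higher, 11.2% lower). At 4 h 7 of 10 passed (1 higher, 6 lower), against 67% (22.1% higher, 44.9% lower), and at 8 h 6 of 10 passed (2 higher, 4 lower), against 81.5% (24.5% higher, 56.9% lower). With CX-5461, 5 of 10 passed at 2 h (2 higher, 3 lower), against 27.9% (7.45% higher, 20.5% lower), and 3 of 10 without control replicate 1 or without CX-5461 replicate 2 or 3. At 4 h 5 of 10 passed (1 higher, 4 lower), against 70.9% (19.8% higher, 51.2% lower), and at 8 h 6 of 10 passed (5 higher, 1 lower), against 49.4% (35.1% higher, 14.3% lower). The share of the 10 genes was above that of all genes at 2 and 8 h of CX-5461 and below it at 4 h of CX-5461 and 8 h of BMH-21, and these differences in share were not tested. The 6 comparisons share the 3 control libraries. After centring, 2 were higher and 1 lower at 2 h of BMH-21 (36% of all genes called), 1 and 5 at 4 h (73.6%) and 4 and 4 at 8 h (84.6%). For CX-5461 the numbers were 2 and 2 at 2 h (33.6%), 3 and 3 at 4 h (74.2%) and 4 and 3 at 8 h (74%). Centred differences at 8 h of BMH-21 were -0.98 for Cry1, -0.82 for Cry2, -0.62 for Nr1d1 and -0.90 for Nr1d2. Those of Tef and Bhlhe40 were 2.43 and 2.35. With CX-5461 the centred 8 h values were -0.57 for Nr1d2, 1.32 for Tef and 1.55 for Bhlhe40.

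**Figure D1:**
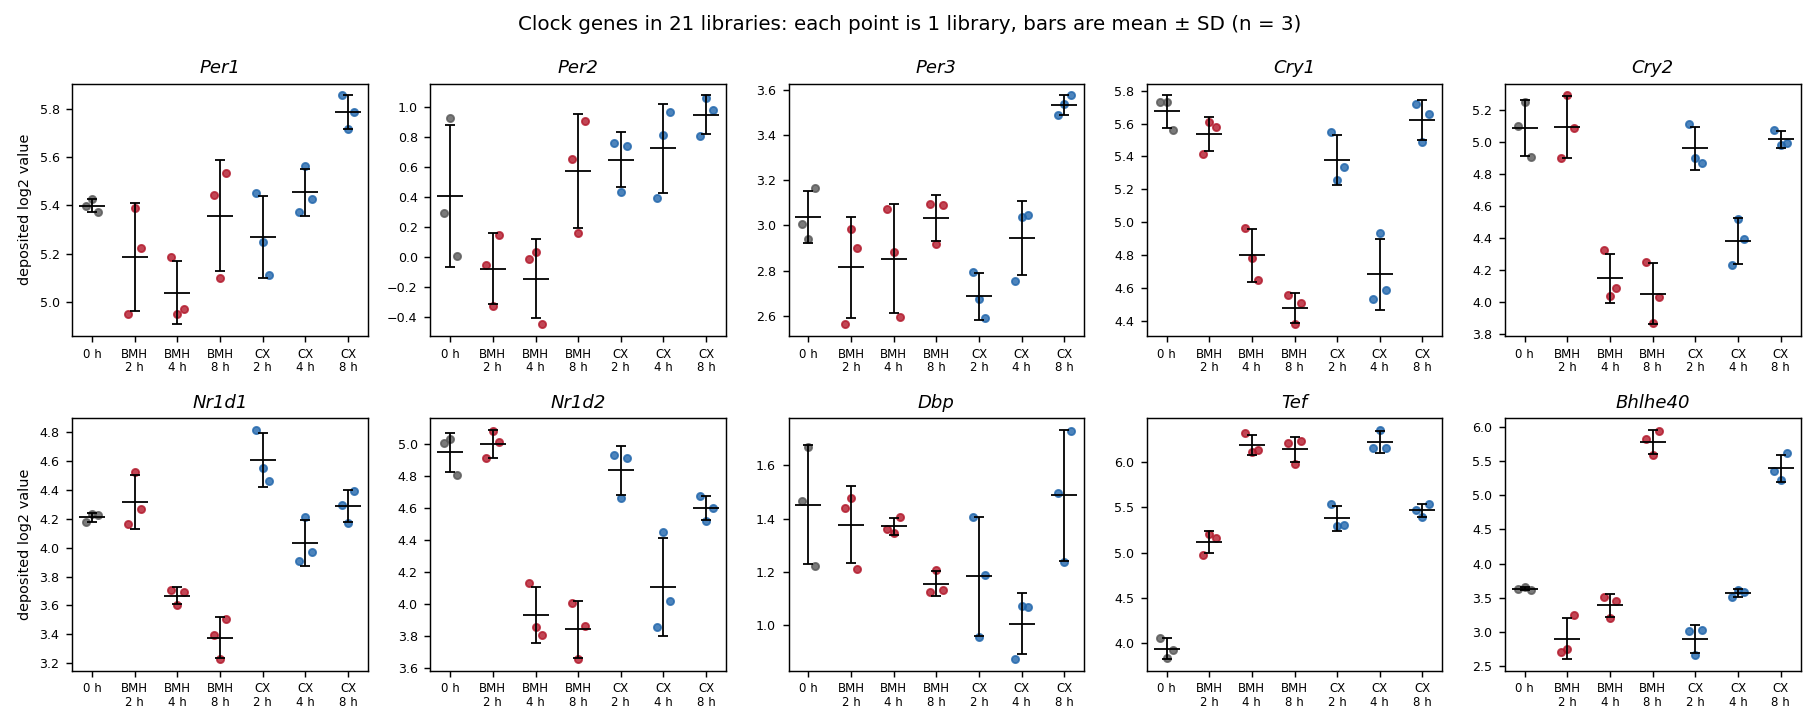
Deposited log2 value (vertical axis) of the 10 clock genes in the 21 libraries, by group on the horizontal axis (0 h control in grey, BMH-21 in red, CX-5461 in blue at 2, 4 and 8 h). Each point is 1 library and bars are the mean and SD of 3. Tef sits above its 0 h values (3.83 to 4.06) in all 18 treated libraries, and Bhlhe40 reaches 5.22 to 5.93 in the 6 libraries of 8 h.

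The period genes Per1 (ENSMUSG00000020893, GRCm38 chromosome 11, 69095217 to 69109960) and Per2 (chromosome 1, 91415982 to 91459324) encode the repressors best known as fast responders to serum. Neither passed the test at 2 h with either inhibitor. No treated library was taken before 2 h, so an earlier change could not be seen. Per1 had log2 values of 5.40, 5.42 and 5.37 at 0 h. With BMH-21 it had 4.95, 5.39 and 5.22 at 2 h, 5.19, 4.95 and 4.97 at 4 h and 5.44, 5.10 and 5.53 at 8 h. With CX-5461 it had 5.45, 5.25 and 5.11 at 2 h, 5.37, 5.56 and 5.43 at 4 h and 5.86, 5.72 and 5.79 at 8 h. The BMH-21 libraries of 4 h thus lay below all controls and the CX-5461 libraries of 8 h above all controls, while the 2 h groups overlapped the controls. Per1 fell by 0.36 at 4 h of BMH-21 (SE 0.11, limma adjusted p = 0.0034) and rose by 0.39 at 8 h of CX-5461 (1.31-fold, SE 0.11, limma adjusted p = 0.0022). The 2 h differences did not pass: -0.21 in BMH-21 cells (95% interval -0.44 to 0.01, limma adjusted p = 0.20) and -0.13 in CX-5461 cells (-0.35 to 0.09, limma adjusted p = 0.36). After centring, the rise at 8 h of CX-5461 shrank to 0.18 and still passed. On that scale Per1 was also past the threshold as higher at 8 h of BMH-21 (0.17, from -0.04) and at 4 h of CX-5461 (0.22, from 0.06).

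Per2 had log2 values of 0.30, 0.93 and 0.00 at 0 h, a spread as wide as most of its differences. In BMH-21 cells its values were -0.06, -0.33 and 0.15 at 2 h, -0.01, 0.03 and -0.45 at 4 h and 0.66, 0.16 and 0.90 at 8 h. In CX-5461 cells its values were 0.76, 0.44 and 0.74 at 2 h, 0.39, 0.82 and 0.96 at 4 h and 0.81, 1.06 and 0.98 at 8 h. All 6 treated groups overlapped the controls. Per2 passed the test as lower at 4 h of BMH-21 (-0.55, SE 0.22, limma adjusted p = 0.021) and as higher at 8 h of CX-5461 (0.54, SE 0.22, limma adjusted p = 0.032), and both calls were lost after centring. At 4 h of CX-5461 the difference was 0.32 (limma adjusted p = 0.19), and after centring it was 0.47 and passed. Without the control library at 0.93 the BMH-21 difference was -0.29, and without BMH-21 replicate 3 it was -0.40, and neither passed. The CX-5461 difference at 8 h did not pass without control replicate 1 (0.48) or 3 (0.34) or without CX-5461 replicate 2 (0.49) or 3 (0.53), and was 0.80 without control replicate 2. At 2 h of BMH-21 Per2 stood at -0.49 (95% interval -0.92 to -0.05, limma adjusted p = 0.11).

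Per3 (chromosome 4, 151003652 to 151044665), a period gene that the rhythm is known to tolerate losing, ran between 2.94 and 3.16 at 0 h. It ranged from 2.56 to 3.09 over the BMH-21 libraries, and no BMH-21 group passed the test against 0 h, although after centring BMH-21 at 8 h passed as higher (0.21, from 0.00). With CX-5461 it was 2.80, 2.67 and 2.59 at 2 h and 3.49, 3.53 and 3.57 at 8 h, so that the first group lay below all controls and the second above them. The fall of 0.35 at 2 h of CX-5461 (SE 0.13, limma adjusted p = 0.031) did not pass once libraries were centred, nor without control replicate 1 or 3 or CX-5461 replicate 2 or 3 (-0.36 to -0.29). The rise of 0.50 at 8 h (1.41-fold, SE 0.13, limma adjusted p = 5.7e-04) shrank to 0.28 after centring and to 0.09, no longer past the threshold, with quantile normalization.

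The cryptochromes Cry1 (chromosome 10, 85131700 to 85185064) and Cry2 (chromosome 2, 92403646 to 92434043), the main repressors of CLOCK and BMAL1, changed late and about 2-fold. Cry1 had log2 values of 5.73, 5.73 and 5.56 at 0 h. The BMH-21 libraries held 5.42, 5.61 and 5.58 at 2 h, 4.96, 4.78 and 4.64 at 4 h and 4.55, 4.38 and 4.51 at 8 h. The CX-5461 libraries held 5.55, 5.26 and 5.34 at 2 h, 4.53, 4.93 and 4.58 at 4 h and 5.72, 5.49 and 5.66 at 8 h. All libraries of 4 h and those of BMH-21 at 8 h lay below every control, and 2 of the 3 CX-5461 libraries of 8 h were back within the range of the controls, with the other just below it. Cry1 fell by 0.88 at 4 h (a ratio of 0.544, SE 0.11, limma adjusted p = 1.1e-11) and by 1.20 at 8 h (0.436, limma adjusted p = 1.6e-18) of BMH-21. With CX-5461 it fell by 0.99 at 4 h (0.502, limma adjusted p = 7.0e-14), and at 8 h the difference was -0.05 (95% interval -0.27 to 0.17, limma adjusted p = 0.73), which became -0.27 after centring and then passed. The fall of 0.30 at 2 h of CX-5461 (limma adjusted p = 0.038) did not pass with median-ratio factors or quantile normalization, nor without control replicate 1 or 2 or CX-5461 replicate 2 or 3 (-0.27 to -0.23).

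Cry2 followed the same course. It had log2 values of 5.10, 5.25 and 4.91 at 0 h. With BMH-21 it had 4.90, 5.29 and 5.09 at 2 h, 4.32, 4.04 and 4.09 at 4 h and 4.25, 3.87 and 4.03 at 8 h. With CX-5461 it had 5.12, 4.90 and 4.87 at 2 h, 4.23, 4.52 and 4.39 at 4 h and 5.08, 4.98 and 4.99 at 8 h. As for Cry1, the 9 libraries of 4 h and of BMH-21 at 8 h were below all the others. Cry2 fell by 0.94 and 1.04 at 4 and 8 h of BMH-21 (SE 0.12, limma adjusted p = 2.0e-12 and 1.3e-14) and by 0.70 at 4 h of CX-5461 (SE 0.12, limma adjusted p = 5.1e-08). At 8 h of CX-5461 the difference was -0.07 (limma adjusted p = 0.64), and -0.29 after centring, which passed. On the centred scale both cryptochromes were therefore still below 0 h at 8 h of CX-5461, by less than at 4 h. Its exons share 295 bases with D930015M05Rik on the other strand; the library kit keeps strand, but whether the counting used it is not given in the sources used here.

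The REV-ERB genes moved unequally. Nr1d2 (chromosome 14, 18204054 to 18239127), which encodes REV-ERB beta, had log2 values of 5.00, 5.03 and 4.81 at 0 h. In BMH-21 cells its values were 4.91, 5.08 and 5.01 at 2 h, 4.13, 3.85 and 3.80 at 4 h and 4.01, 3.65 and 3.86 at 8 h. In CX-5461 cells its values were 4.93, 4.66 and 4.91 at 2 h, 3.85, 4.45 and 4.01 at 4 h and 4.67, 4.52 and 4.60 at 8 h. Its low groups were those of the cryptochromes, and at 8 h of CX-5461 it still lay below all controls. It fell by 1.02 and 1.11 at 4 and 8 h of BMH-21 (ratios 0.493 and 0.464, SE 0.12, limma adjusted p = 1.5e-13 and 1.3e-15), and by 0.84 and 0.35 at 4 and 8 h of CX-5461 (0.558 and 0.785, SE 0.12, limma adjusted p = 3.8e-10 and 0.0092). The last call was lost without control replicate 2, at -0.31.

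Nr1d1 (chromosome 11, 98767932 to 98775333), which encodes REV-ERB alpha, had log2 values of 4.18, 4.23 and 4.22 at 0 h. The BMH-21 libraries held 4.16, 4.52 and 4.27 at 2 h, 3.71, 3.60 and 3.69 at 4 h and 3.39, 3.23 and 3.51 at 8 h. The CX-5461 libraries held 4.82, 4.55 and 4.46 at 2 h, 3.91, 4.21 and 3.97 at 4 h and 4.29, 4.17 and 4.40 at 8 h. The BMH-21 libraries of 4 and 8 h lay below all controls, and the CX-5461 libraries of 2 h above all controls. Nr1d1 fell by 0.54 and 0.83 at 4 and 8 h of BMH-21 (SE 0.12, limma adjusted p = 2.1e-05 and 1.5e-10) and rose by 0.40 at 2 h of CX-5461 (1.32-fold, limma adjusted p = 0.0060). Without the CX-5461 library at 4.82 the rise was 0.29 and did not pass. Its later CX-5461 differences, -0.18 at 4 h and 0.08 at 8 h, did not pass (limma adjusted p = 0.16 and 0.61). Its exons share 263 bases with Thra on the other strand, so reads of the pair cannot be told apart unless strand was used. After centring the difference at 2 h of BMH-21, 0.11 on the deposited scale, was 0.18 and passed.

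The PAR bZIP genes Tef (chromosome 15, 81802421 to 81826863) and Dbp (chromosome 7, 45705088 to 45710203) are clock outputs that activate D-box genes, and in these libraries their levels moved apart. Tef had log2 values of 4.06, 3.83 and 3.92 at 0 h. With BMH-21 it had 4.98, 5.21 and 5.16 at 2 h, 6.32, 6.12 and 6.14 at 4 h and 6.22, 5.99 and 6.24 at 8 h. With CX-5461 it had 5.54, 5.30 and 5.30 at 2 h, 6.16, 6.36 and 6.16 at 4 h and 5.47, 5.39 and 5.54 at 8 h. The lowest treated library, at 4.98, lay above the highest control, at 4.06. The groups of 4 h and of BMH-21 at 8 h overlapped each other, and CX-5461 at 8 h was lower and overlapped CX-5461 at 2 h. Tef rose by 1.18, 2.26 and 2.21 with BMH-21 (2.27-, 4.80- and 4.64-fold, SE 0.11, limma adjusted p = 1.3e-17, 1.9e-40 and 8.7e-40). With CX-5461 it rose by 1.45, 2.29 and 1.54 (2.73-, 4.91- and 2.90-fold, SE 0.11, limma adjusted p = 2.6e-23, 6.6e-41 and 6.4e-26). These 6 calls held under each of the 11 alternatives and with each library left out. Tef shares 193 exon bases with the antisense gene Gm17597.

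Dbp stayed low, between 0.87 and 1.73 in all 21 libraries, with 1.47, 1.67 and 1.22 at 0 h. It passed once against 0 h, as lower at 4 h of CX-5461, where the libraries had 0.87, 1.07 and 1.07 (-0.45, SE 0.17, limma adjusted p = 0.015). That call was lost after centring, without control replicate 2 (-0.34) and without CX-5461 replicate 1 (-0.38). The other five differences from 0 h ran from -0.30 to 0.04. Dbp shares 539 of its exon bases with Sphk2 on the other strand.

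Bhlhe40 (chromosome 6, 108660629 to 108666925), the E-box repressor DEC1, moved in opposite directions at the first and the last hour. It had log2 values of 3.63, 3.66 and 3.61 at 0 h. In BMH-21 cells its values were 2.71, 2.75 and 3.25 at 2 h, 3.51, 3.21 and 3.46 at 4 h and 5.82, 5.58 and 5.93 at 8 h. In CX-5461 cells its values were 3.02, 2.66 and 3.03 at 2 h, 3.52, 3.62 and 3.58 at 4 h and 5.35, 5.22 and 5.61 at 8 h. The 2 h libraries all lay below the controls and the 8 h libraries all above them, while the 4 h libraries of BMH-21 lay below the controls and those of CX-5461 overlapped them. Bhlhe40 fell by 0.73 at 2 h with either inhibitor (ratios 0.604 and 0.602, SE 0.12, limma adjusted p = 5.6e-07 and 4.7e-07). At 8 h it rose by 2.14 with BMH-21 (4.41-fold, limma adjusted p = 2.0e-34) and by 1.76 with CX-5461 (3.39-fold, limma adjusted p = 5.1e-27). At 4 h the differences were -0.24 (limma adjusted p = 0.071) and -0.06 (limma adjusted p = 0.66). The calls at 2 and 8 h held under each of the 11 alternatives and with each library left out, although this gene had the largest own variance of the 10 relative to the moderated one, 1.51 times. Its exons share 118 bases with the antisense gene 0610040F04Rik.

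At the same hour, BMH-21 and CX-5461 cells had both received fresh medium and the same time in culture, so these comparisons are matched for what the 0 h control lacks. They are also differences between inhibitors, and say nothing of what both share. At 2 h 1 of the 10 genes passed, Per2, against 3.99% of all genes tested (2.47% higher, 1.52% lower). At 4 h 3 of 10 passed, all lower with BMH-21, against 17.8% (9.35% higher, 8.49% lower), and at 8 h 8 of 10 passed (2 higher, 6 lower with BMH-21), against 79.2% (12% higher, 67.2% lower). Over the 10 genes the median difference, BMH-21 minus CX-5461, was 0.07, -0.18 and -0.46 at 2, 4 and 8 h, beside 0.09, 0.06 and -0.48 over all genes tested.

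The genes that passed at 4 h were Per1, Per2 and Nr1d1, whereas Per3 did not (-0.09, limma adjusted p = 0.65). Per1 was lower with BMH-21 by 0.42 (a ratio of 0.748, SE 0.11, limma adjusted p = 0.0040), and the highest BMH-21 library (5.19) lay below the lowest CX-5461 library (5.37). Per2 was lower by 0.87 (0.548, SE 0.22, limma adjusted p = 0.0019), again without overlap, and was lower by 0.73 at 2 h (0.604, SE 0.22, limma adjusted p = 0.036). The 2 h call of Per2 was lost without any one of 4 libraries, BMH-21 replicates 1 and 2 and CX-5461 replicates 1 and 3, whereas its 4 h call held with each library left out. Nr1d1 was lower by 0.36 at 4 h (SE 0.12, limma adjusted p = 0.019), a call lost without BMH-21 replicate 2 or CX-5461 replicate 2. After centring, Per1 and Per2 were again lower at 4 h, at -0.43 and -0.88. Further genes passed on that scale: Nr1d1 (-0.36) and Tef (-0.34) at 2 h, and Cry2 (-0.24), Nr1d2 (-0.19) and Dbp (0.36) at 4 h, each with nearly the same size on the deposited scale. Calls over all 14666 genes rose as well under the 4 other scalings, of which centring is 1. They were 1847 to 2261 in place of 585 at 2 h, and 6116 to 6719 in place of 2617 at 4 h. Tef (-0.03), Cry1 (0.11) and Bhlhe40 (-0.18) did not pass at 4 h, with 95% intervals of -0.25 to 0.18, -0.11 to 0.34 and -0.42 to 0.06.

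At 8 h the cryptochromes and both REV-ERB genes were lower with BMH-21 than with CX-5461, and Tef and Bhlhe40 were higher. The differences were -1.14 for Cry1 (a ratio of 0.452, limma adjusted p = 6.5e-17), -0.97 for Cry2 (0.512, limma adjusted p = 7.0e-13), -0.91 for Nr1d1 (0.532, limma adjusted p = 1.1e-11) and -0.76 for Nr1d2 (0.591, limma adjusted p = 8.4e-09), with SEs of 0.11 to 0.12. For each of these genes every BMH-21 library was below every CX-5461 library. How many of all genes were so separated was not counted, and 67.2% of them passed as lower in this comparison. After centring the differences of Cry1, Cry2, Nr1d1 and Nr1d2 were -0.72, -0.54, -0.48 and -0.33, each still past the threshold. Tef was 0.68 higher (1.60-fold, SE 0.11, limma adjusted p = 2.7e-08) and Bhlhe40 0.38 higher (1.30-fold, SE 0.12, limma adjusted p = 0.0032), and centring raised these to 1.11 and 0.81. Per1 (-0.43, limma adjusted p = 3.7e-04) and Per3 (-0.50, limma adjusted p = 2.7e-04) also passed as lower on the deposited scale, but centring left -0.0034 and -0.07, and neither passed. The ESC marker sums of these 2 groups were 11.49 to 11.57 and 12.41 to 12.51, and their part in the differences was not tested.

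**Figure D2:**
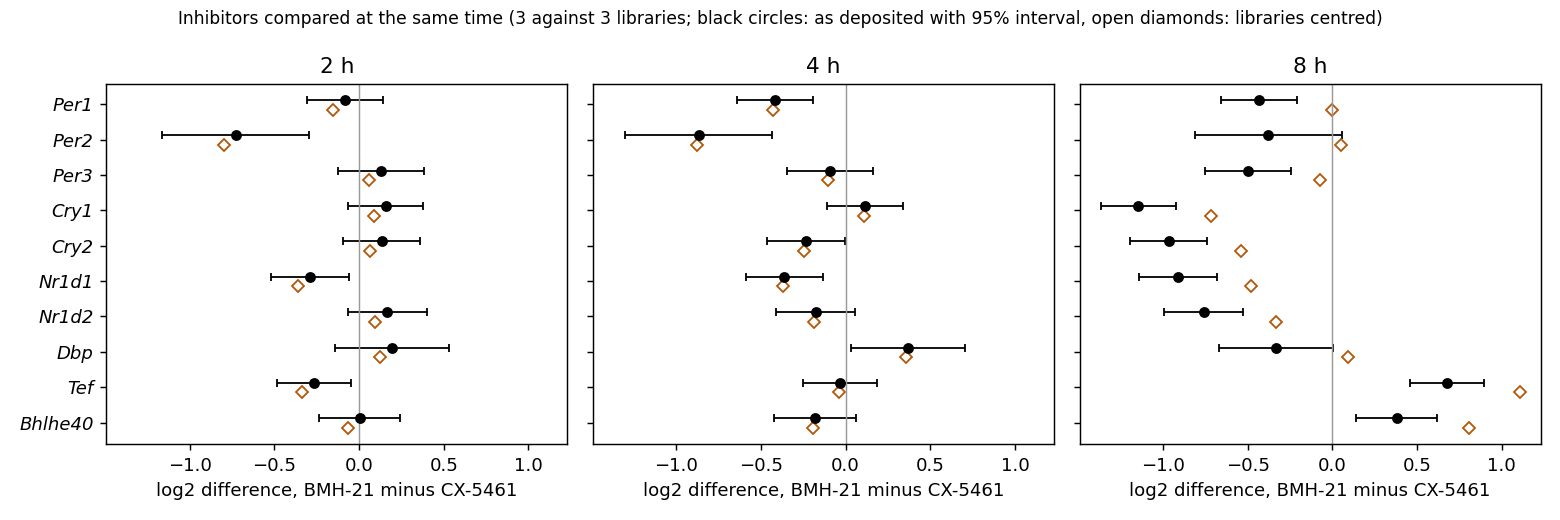
Log2 difference of BMH-21 minus CX-5461 (horizontal axis) for the 10 clock genes (rows) at 2, 4 and 8 h (panels), 3 against 3 libraries. Black circles with 95% intervals are on the deposited scale and open diamonds are after centring the libraries. At 8 h Cry1, Cry2, Nr1d1 and Nr1d2 lie left of 0 and Tef and Bhlhe40 right of it on both scales, while the diamonds of Per1, Per2, Per3 and Dbp lie near 0.

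From 2 to 8 h within an inhibitor, both groups had received fresh medium, and the comparison is of a later with an earlier hour. With BMH-21, 7 of 10 genes passed (3 higher, 4 lower), against 77.3% of all genes tested (25% higher, 52.3% lower). Bhlhe40 rose by 2.87 (7.30-fold), Tef by 1.03 (2.04-fold) and Per2 by 0.65 (1.57-fold), and Cry1, Cry2, Nr1d1 and Nr1d2 fell by 1.06, 1.04, 0.94 and 1.16, with limma adjusted p-values of at most 0.0051. The rise of Per2 did not pass without BMH-21 8 h replicate 3 (0.49) or with quantile normalization (0.28). With CX-5461, 4 of 10 passed (3 higher, 1 lower), against 56% (51.2% higher, 4.83% lower). Bhlhe40 rose by 2.49 (5.63-fold), Per3 by 0.85 (1.80-fold) and Per1 by 0.52 (1.43-fold), and Nr1d1 fell by 0.32, with limma adjusted p-values of at most 0.014. The fall of Nr1d1 did not pass without CX-5461 2 h replicate 1 (-0.22) or without CX-5461 8 h replicate 2 (-0.26). After centring 8 of 10 passed for CX-5461, 3 higher and 5 lower, against 69.7% of all genes. Among them were Bhlhe40 at 2.13, Per3 at 0.48, Per1 at 0.16 and Nr1d1 at -0.68. The 4 that were added were Cry1 (0.24 on the deposited scale, -0.12 centred), Cry2 (0.06 and -0.31), Nr1d2 (-0.24 and -0.60) and Tef (0.09 and -0.27), so the direction of Cry1, Cry2 and Tef between 2 and 8 h of CX-5461 depended on the scaling. With BMH-21, Per1 (0.31) and Per3 (0.35) also passed as higher after centring.

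The difference between the inhibitors in this 2 to 8 h change was tested as an interaction, and 9 of 10 genes passed (2 positive, 7 negative), against 75.3% of all genes tested (9.23% and 66.1%). Cry1 changed by -1.30 more with BMH-21 than with CX-5461 (SE 0.16, limma adjusted p = 5.1e-12), Cry2 by -1.10 (limma adjusted p = 4.4e-09) and Nr1d2 by -0.93 (limma adjusted p = 7.3e-07), and Tef by 0.94 (limma adjusted p = 8.0e-08). These 4 passed under each of the 11 alternatives and with each library left out. The interactions of Per1, Per3, Nr1d1 and Dbp (-0.35, -0.63, -0.62 and -0.53) were lost after centring, and those of Per1 and Dbp also without any one of 7 and 8 of the 12 libraries concerned (down to -0.22 and -0.41). That of Bhlhe40 (0.38) was lost without any one of 8 of the 12. That of Per2 (0.35, limma adjusted p = 0.30) passed after centring, at 0.85. With the replicate number as a block, Per1 gave -0.35 and no longer passed (limma adjusted p = 0.051).

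A difference between a pair of genes of 1 library does not depend on how the library is scaled. These pairs were chosen after their values were seen and are a description, and since the values are not per length, only their shift between groups can be read. Per1 minus Cry1 was -0.28 ± 0.08 (SD, n = 3) at 0 h, -0.35 ± 0.12, 0.24 ± 0.08 and 0.88 ± 0.15 after 2, 4 and 8 h of BMH-21. Under CX-5461 it was -0.11 ± 0.11, 0.77 ± 0.12 and 0.17 ± 0.06. The repressors thus changed their balance toward Per1 in both inhibitors at 4 h, and at 8 h the libraries of BMH-21 (0.72 to 1.03) and CX-5461 (0.13 to 0.23) did not overlap. Tef minus Dbp was 2.48 ± 0.29 at 0 h, 3.74 ± 0.21, 4.83 ± 0.12 and 4.99 ± 0.18 over the hours of BMH-21. Under CX-5461 it was 4.20 ± 0.12, 5.22 ± 0.11 and 3.98 ± 0.18. Nr1d1 minus Nr1d2 was -0.74 ± 0.13 at 0 h, -0.69 ± 0.11, -0.26 ± 0.16 and -0.46 ± 0.14 over the hours of BMH-21. Under CX-5461 it was -0.23 ± 0.20, -0.08 ± 0.15 and -0.31 ± 0.09. The CX-5461 libraries of all hours and the BMH-21 libraries of 4 h lay above the controls in that last difference. Those of 2 and 8 h of BMH-21 overlapped the controls.

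**Figure D3:**
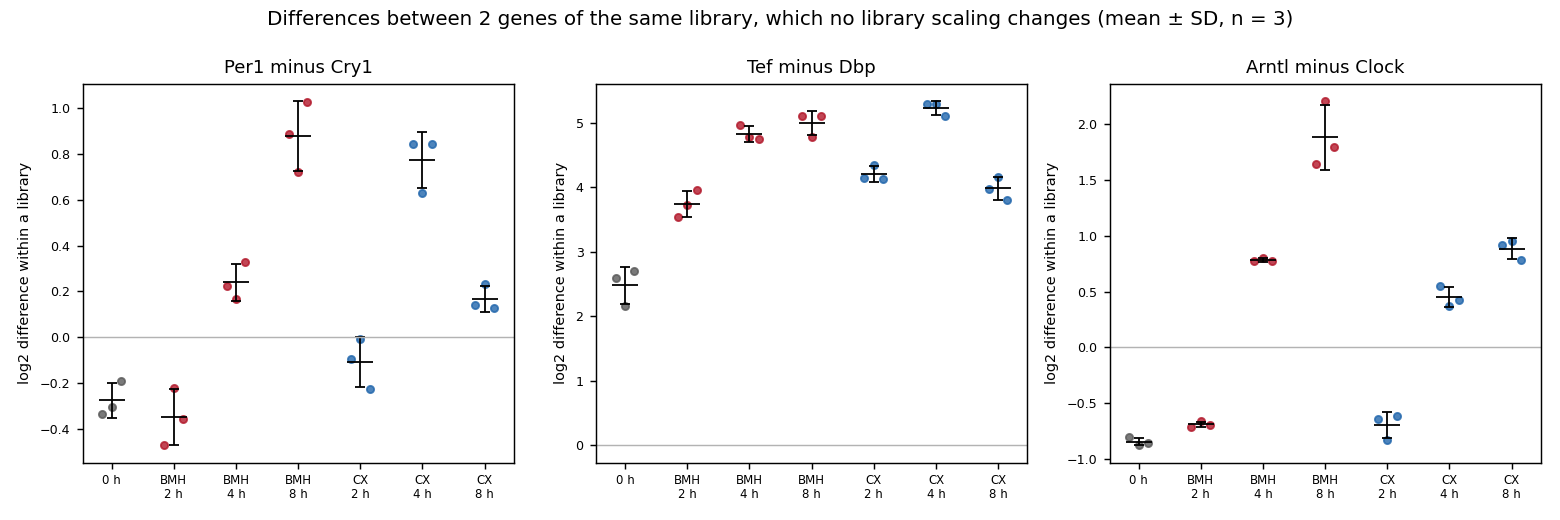
Log2 difference between a pair of genes of the same library (vertical axis) by group (horizontal axis) for Per1 minus Cry1, Tef minus Dbp and Arntl minus Clock. Each point is 1 library and bars are the mean and SD of 3. Arntl minus Clock goes from -0.85 at 0 h to 1.88 at 8 h of BMH-21 and 0.88 at 8 h of CX-5461.

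Of 22 other genes of the clock, 18 passed the filter on low values and were tested. The activators moved apart from each other. Arntl, which encodes BMAL1, had log2 values of 4.10, 4.03 and 3.90 at 0 h, 3.70, 4.16 and 4.03 at 2 h and 5.56, 5.30 and 5.59 at 8 h of BMH-21, and 4.16, 3.74 and 3.84 at 2 h and 5.39, 5.43 and 5.38 at 8 h of CX-5461. All 6 libraries of 8 h were above every control and every library of 2 h. Arntl rose by 0.73 and 1.47 at 4 and 8 h of BMH-21 (limma adjusted p = 2.7e-08 and 5.6e-23). In CX-5461 cells Arntl rose by 0.50 and 1.38 (limma adjusted p = 9.2e-05 and 9.8e-21), and its 2 h differences were -0.05 and -0.10. Its paralog Arntl2 rose at 4 and 8 h, by 0.90 and 1.50 in BMH-21 cells and by 1.26 and 1.80 in CX-5461 cells. Clock fell by 0.90 and 1.26 at 4 and 8 h of BMH-21 (limma adjusted p = 4.0e-10 and 7.7e-17), and at the same hours of CX-5461 by 0.79 and 0.35 (limma adjusted p = 2.7e-08 and 0.017). Rora, whose product activates Arntl through the elements that REV-ERB proteins occupy, rose by 0.70 and 0.66 at 8 h of BMH-21 and CX-5461 (limma adjusted p = 1.7e-04 and 9.1e-04).

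Bhlhe41 (DEC2), the paralog of Bhlhe40, had differences of -0.20 and -0.25 at 2 h that did not pass (limma adjusted p = 0.58 and 0.32), and rose by 2.10 (4.29-fold, limma adjusted p = 8.6e-18) and 1.13 (2.19-fold, limma adjusted p = 8.4e-07) at 8 h of BMH-21 and CX-5461. At 8 h Bhlhe41 was 0.97 higher with BMH-21 than with CX-5461 (limma adjusted p = 1.1e-05). Hlf, the third PAR bZIP gene, ended below the controls, by 1.19 at 8 h of BMH-21 and by 1.02 at 8 h of CX-5461 (limma adjusted p = 2.9e-09 and 5.6e-07), after a rise of 0.78 at 2 h of BMH-21. The 3 PAR bZIP genes therefore differed in direction at 8 h of BMH-21, with Tef at 2.21, Hlf at -1.19 and Dbp at -0.30, the last not past the threshold. Bhlhe41 had 48 to 53 reads at 0 h and Hlf 60 to 82 at 4 h of CX-5461, so counting error weighs on both. Usp2, a deubiquitinase that acts on clock proteins, rose in all 6 treated groups, by 0.73, 2.00 and 1.29 over the hours of BMH-21 and by 0.56, 1.42 and 0.93 over those of CX-5461. Ciart and Cipc, repressors of CLOCK and BMAL1, fell by 1.14 and 1.13 at 4 h of BMH-21 and by 1.12 and 0.68 at 4 h of CX-5461. Nono, a PER-binding RNA-binding protein, fell by 2.01 at 8 h of BMH-21 and by 0.65 at 8 h of CX-5461. Over the 18 genes, 7 rose and 10 fell at 8 h of BMH-21, against 24.5% and 56.9% of all genes tested, and 7 rose and 3 fell at 8 h of CX-5461, against 35.1% and 14.3%. The medians were -0.37 and 0.14 beside -0.40 and 0.11 over all genes tested. After centring the counts at 8 h were 7 and 10, and 6 and 8, where 84.6% and 74% of all genes were called in either direction.

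At the same hour, Arntl and Clock did not pass between the inhibitors at 2 or 4 h, although Arntl at 4 h (0.23) passed after centring (0.22). At 8 h Arntl differed by 0.09, BMH-21 minus CX-5461 (limma adjusted p = 0.49, and 0.52 and past the threshold after centring), and Clock was lower with BMH-21 by 0.91 (limma adjusted p = 2.4e-10). Arntl2 was lower with BMH-21 by 0.36 at 4 h and by 0.30 at 8 h (limma adjusted p = 0.020 and 0.017), the latter becoming 0.13 higher and not past the threshold after centring. Rora differed by 0.04 at 8 h (limma adjusted p = 0.83, and 0.47 and past the threshold after centring). Hlf was higher with BMH-21 by 0.78 at 2 h and 0.75 at 4 h (limma adjusted p = 0.0024 and 0.0011) and did not pass at 8 h. Usp2 was higher by 0.58 at 4 h and 0.35 at 8 h (limma adjusted p = 5.7e-05 and 0.0040). Cipc was lower by 0.45 at 4 h, and at 8 h Ciart, Cipc and Nono were lower by 0.67, 0.83 and 1.36 (limma adjusted p = 4.1e-06, 1.7e-10 and 2.0e-23). These differences of Clock, Hlf, Usp2, Ciart, Cipc and Nono also passed after centring.

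**Figure D4:**
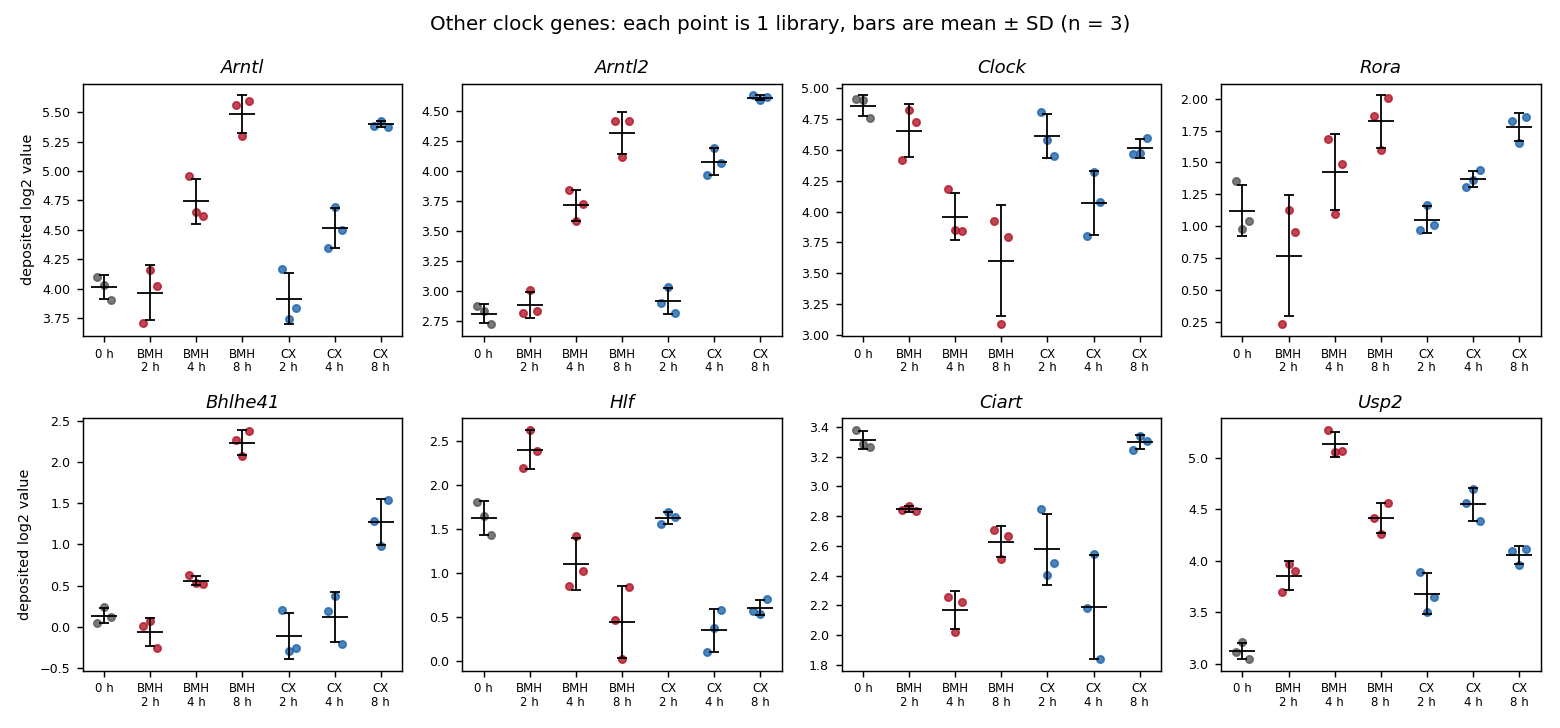
Deposited log2 value (vertical axis) of 8 other clock genes in the 21 libraries by group (horizontal axis). Each point is 1 library and bars are the mean and SD of 3. Arntl and Arntl2 lie above their 0 h values at 4 and 8 h of either inhibitor, and Clock lies below them.

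Genes known to respond to serum or CREB, and genes known to respond to glucocorticoid, were read in the same libraries, since both signals act on Per1 and Per2. Of 14 early serum and CREB genes, 9 were higher and 2 lower at 2 h of BMH-21, against 8.48% and 11.2% of all genes tested, and 7 and 2 at 2 h of CX-5461, against 7.45% and 20.5%. BMH-21 cells had 9 higher and 4 lower at 4 h (22.1% and 44.9% of all genes) and 7 and 5 at 8 h (24.5% and 56.9%). CX-5461 cells had 9 and 3 at 4 h (19.8% and 51.2%), then 9 and 1 at 8 h (35.1% and 14.3%). Fos had log2 values of 1.94, 2.10 and 1.76 at 0 h and rose by 1.98 and 1.94 at 2 h of BMH-21 and CX-5461 (3.96- and 3.83-fold, limma adjusted p = 1.6e-30 and 9.2e-30), and was still 2.54 and 1.65 higher at 8 h. At 2 h Per1 stood at -0.21 and -0.13 and Per2 at -0.49 and 0.24, none past the threshold, and no treated library was earlier than 2 h. Of the other list members, Sik1, Crem and Ier2 fell by 0.63, 0.64 and 0.79 at 4 h of BMH-21, and Sik1 by 0.35, Crem by 0.39 and Ier2 by 0.52 at 4 h of CX-5461. Other members went up: Ccn1 had means of 3.965 at 0 h and 5.83 and 5.30 at 4 h of BMH-21 and CX-5461. Junb had 5.55, 6.47 and 6.09 in the same groups. Of 7 glucocorticoid-responsive genes, 2 were higher and 2 lower at 2 h with either inhibitor, 2 and 4 at 4 h of BMH-21 and 3 and 4 at 4 h of CX-5461. After 8 h the numbers were 3 higher and 4 lower in BMH-21 cells and 2 of each in CX-5461 cells. The shares of all genes are those just given for each hour. Sgk1 fell by 0.96 and 1.33 at 2 h, and Fkbp5 by 0.74 and 0.75 at 4 h, of BMH-21 and CX-5461. Ddit4, which stress also raises, rose by 2.07 to 3.36 in the 6 groups. Errfi1 had means of 4.53 at 0 h, 5.25 and 5.09 at 2 h, and 5.62 and 5.11 at 4 h of BMH-21 and CX-5461. At the same hour Fos did not pass between the inhibitors at 2 h (0.05) and was higher with BMH-21 by 0.87 at 4 h and 0.89 at 8 h, whereas Sgk1 was higher by 0.37 at 2 h and lower by 0.72 and 0.94 at 4 and 8 h. What the medium change contributed to any of these values was not tested.

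Among the 10 genes, the closest courses over the 21 centred libraries were those of Cry2 and Nr1d2 (Pearson r = 0.95), Cry1 and Cry2 (0.93) and Cry1 and Nr1d2 (0.90), and the most opposed those of Cry1 and Tef (-0.87). These coefficients span 7 groups of 3 libraries, so they mostly reflect the group means, and they are given as a description. Of 13683 genes with a mean log2 value of at least 0, those closest to Tef were Mab21l3, Tbxa2r and Prr15l (r = 0.99 for each). Closest to Cry1 were Ralgps2, Gtf2e2 and Rimklb (0.98 to 0.99), to Cry2 Ints6, Tigar and Fnbp4 (0.97 to 0.98), and to Nr1d2 Hiat1, Fam76b and Msc (0.97 to 0.98). Bhlhe40 was closest to Zfp36, Parva and Dcdc2c (0.97 for each) and Nr1d1 to Arfgap2, Med22 and Ap4m1 (0.91 to 0.93). For Per1 they were Rsl1, Ficd and Wdr90 (0.86 to 0.88), for Per3 Recql5, Abca3 and Mroh1 (0.86 to 0.91), for Per2 Vps33b, Rcbtb1 and Rsl1 (0.76 to 0.81) and for Dbp Sec61b, Ndufc1 and Cox6a1 (0.77 to 0.79). No clock gene was among the 3 closest to any of the 10.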

How the data were processed

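RNA from 21 libraries of E14 cells (7 groups of 3) was described by 1 table of log2 values. The authors deposited these log2 values as voom-normalized, per the file name. Per the submitters' processing notes, Trim Galore 0.5.0, TopHat2 2.1.1, R 4.0.5, DESeq2 1.30.1, edgeR 3.32.1, limma 3.46.0 and the mouse build mm10 were used, with no role or order given. The counting program, annotation and filters are not given in the sources used here. Each deposited log2 value corresponds to a whole number of reads (to within 1.7e-08) plus 0.5 over the library's total times a factor whose origin is not given. Groups and replicate numbers came from the labels, and 0 columns were left without a sample. No replicate pair agreed within sampling noise: the chi-square per degree of freedom between replicate pairs was 2.58 to 26.0.

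A linear model with 1 mean per group was fitted in limma 3.58.1 (R 4.3.3) to 14666 genes of all 21 libraries, with eBayes and a mean-variance trend, two-sided, adjusted by Benjamini-Hochberg within each of 12 comparisons at a threshold of 0.05. The 6234 genes without a log2 value above 0 in at least 3 libraries were set aside. Replicates gave 14 residual degrees of freedom, and the variance prior 111.5 (8.531 after the libraries were centred). The limma adjusted p of Tef at 4 h of BMH-21 was 1.9e-40 on the deposited scale and 5.1e-22 after centring. The fit was tested on simulated data with few changed genes and the deposited scaling. That test does not bear on the choice of scaling. Because of the 0.5 offset, log2 differences understate the changes of low genes. Alternatives were 2 other filters, values below 0 set to 0, an offset of 5 reads, centring, median-ratio factors, quantile normalization, voom weights, no trend, a replicate block, a fit of the compared groups alone, and leaving out each library. Positions are from GENCODE M21 (GRCm38) and promoter windows from RefSeq (GRCm38.p6).

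The 10 genes and all other lists were chosen with earlier results of these data known. Genes named are the 10, those of the other clock genes that are activators or ROR genes or passed with a log2 difference of at least 1, members of the early and glucocorticoid lists, and for each of the 10 the 3 genes with the highest Pearson r.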

Additional observations from a re-analysis of the deposited data

Results flagged for a closer look

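For 9 of the 10 genes the change from 2 to 8 h differed between BMH-21 and CX-5461 by the interaction test. The value, BMH-21 minus CX-5461 on the log2 scale, was -1.30 for Cry1, -1.10 for Cry2, -0.93 for Nr1d2 and 0.94 for Tef. Each inhibitor had 3 libraries at each hour, and the same test passed for 75.3% of all genes. It was -0.62 for Nr1d1, -0.63 for Per3, -0.53 for Dbp and -0.35 for Per1, and these 4 did not pass after centring the libraries. It was 0.38 for Bhlhe40, which passed after centring and did not pass with no filter on low values, with values below 0 set to 0 or without the mean-variance trend. Fresh medium and time in culture were the same for both inhibitors in this test.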

How the results depend on the processing

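The fitted log2 differences of the 10 genes kept their direction and side of the threshold in 1107 of 1308 fits under the alternatives and in 691 of 780 fits with a library left out. The count of the 10 genes called moved by over 1.5 times in 4 comparisons. It was 3 at 2 h of CX-5461 against 0 h with no filter, with values below 0 set to 0, with median-ratio factors, quantile normalization, no trend or voom weights. For BMH-21 against CX-5461 at 2 h it was 0 with no filter, values below 0 set to 0, no trend, or a log2 value above 0 required in all 21 libraries (which leaves Per2 untested), 3 after centring, quantile normalization or voom weights and 4 with median-ratio factors. At 4 h it was 6 after centring or with voom weights and 5 with median-ratio factors or quantile normalization, and for 8 h against 2 h of CX-5461 it was 8 after centring or quantile normalization and 7 with median-ratio factors or voom weights. With a library left out it ranged from 3 to 4 at 2 h of CX-5461 against 0 h and from 0 to 1 for BMH-21 against CX-5461 at 2 h. Over all genes, BMH-21 at 2 h against 0 h gave 2891 calls and 4634 to 5285 under the 4 other scalings. BMH-21 against CX-5461 gave 585 and 1847 to 2261 at 2 h, and 2617 and 6116 to 6719 at 4 h. CX-5461 gave 4096 and 4177 to 4926 at 2 h against 0 h, and 8220 and 9343 to 10226 for 8 h against 2 h. Calls over all genes under the other filters, no trend and the replicate block are not given here. With a library left out the calls were 2370 to 5592 at 2 h of CX-5461 against 0 h (4096 with all), 361 to 653 for the 2 h comparison of inhibitors and 1687 to 2931 for that at 4 h. Differences that changed sign did so with the scaling, and the cause was not tested. Under centring, median-ratio factors, quantile normalization or voom weights, against 0 h they became 0.00 and 0.01 (Dbp, BMH-21 2 h), 0.07 and 0.10 (Dbp, BMH-21 4 h), 0.00 (Per3, BMH-21 4 h), 0.17, 0.28 and 0.32 (Per1, BMH-21 8 h), 0.21, 0.35 and 0.36 (Per3, BMH-21 8 h), 0.06 and 0.07 (Dbp, BMH-21 8 h) and -0.22 (Per2, BMH-21 8 h). With CX-5461 they became 0.02, 0.03 and 0.05 (Per1, 2 h), 0.02, 0.03 and 0.06 (Cry2, 2 h), 0.03, 0.04 and 0.07 (Nr1d2, 2 h), 0.07 and 0.16 (Per3, 4 h), 0.01, 0.10 and 0.19 (Bhlhe40, 4 h), 0.07 (Nr1d1, 4 h), -0.18, -0.14 and -0.04 (Nr1d1, 8 h), -0.55, -0.18, -0.09 and -0.08 (Dbp, 8 h) and -0.11 (Per2, 8 h). For BMH-21 against CX-5461 they became -0.11, -0.10, -0.07 and -0.06 (Bhlhe40, 2 h), 0.05, 0.08 and 0.10 (Per2, 8 h), 0.09, 0.14 and 0.16 (Dbp, 8 h) and 0.01 and 0.04 (Per1, 8 h). For 8 h against 2 h they became 0.05 and 0.06 (Dbp, BMH-21) and, with CX-5461, -0.40 and -0.06 (Per2), -0.12, -0.05 and -0.04 (Cry1), -0.31, -0.27 and -0.24 (Cry2), -0.38 and -0.06 (Dbp) and -0.27, -0.21 and -0.20 (Tef). The interaction became 0.15, 0.16 and 0.22 for Per1 and 0.04 and 0.06 for Dbp. With a library left out, differences near 0 crossed it, with ranges of -0.19 to 0.03 (Dbp), -0.09 to 0.10 (Cry2) and -0.02 to 0.10 (Nr1d2) at 2 h of BMH-21, -0.20 to 0.03 (Dbp) at 4 h, and -0.13 to 0.09 (Per1), -0.04 to 0.42 (Per2) and -0.05 to 0.06 (Per3) at 8 h. With CX-5461 they were -0.14 to 0.00 (Per3, 4 h), -0.11 to 0.02 (Cry1, 8 h), -0.16 to 0.01 (Cry2, 8 h) and -0.09 to 0.16 (Dbp, 8 h). Between inhibitors they were -0.18 to 0.04 (Per1, 2 h), -0.17 to 0.10 (Bhlhe40, 2 h), -0.10 to 0.04 (Tef, 4 h) and -0.21 to 0.03 (Per3, 4 h). Replicate numbers did not pair the samples: deviations of same-numbered libraries correlated at a median of 0.002 (lowest -0.25, highest 0.11), and 4 of 21 libraries correlated best with their own number. With the replicate number as a block the interaction called 8 of the 10 genes in place of 9, and the other 11 counts of the 10 genes were as without it. Among the 10 genes, read depth limits Per2 (38 to 117 reads) and Dbp (98 to 199 reads) most.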
